A study of Mus musculus with 58 samples.

Results

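The 10 genes described here (P2ry12, P2ry13, Tmem119, Cx3cr1, Gpr34, Siglech, Olfml3, Sall1, Selplg and Aif1) are those that mark microglia in their surveying, homeostatic state. They were taken by name, and all 10 had a row among the 15171 genes of the deposited count table. RNA was sequenced from the cortex and hippocampus at the injury site of 58 C57BL/6 mice of both sexes. The mice were operated on at 3 months of age, and the tissue was taken 14 days after surgery. All mice carried a human APOE isoform in place of mouse Apoe, as targeted replacement: APOE3 (E3) or APOE4 (E4), each homozygous. They carried either both copies of Abca1 (Abca1+/+) or a single copy (Abca1+/-). Abca1 encodes the transporter that loads lipid onto apolipoprotein E, and the Abca1+/- mice lacked a copy in every cell from birth. Traumatic brain injury (TBI) was a controlled cortical impact over the left parietal cortex, whereas sham mice had the same anesthesia and craniotomy without the impact, so that every mouse had an opened skull. The 8 groups were E3/Abca1+/+ sham and TBI (8 mice each), E3/Abca1+/- sham (7) and TBI (6), E4/Abca1+/+ sham and TBI (7 each), and E4/Abca1+/- sham (7) and TBI (8). Each library was from a separate mouse.

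Microglia are the resident macrophages of the brain. In the undisturbed brain they survey their surroundings with fine processes and express receptors for nucleotides, fractalkine and lysophospholipids, under the control of signals from the tissue such as TGF-beta and colony stimulating factor 1. Around an injury they gather, divide and take on a phagocytic state, in which single microglia are known to lower the homeostatic genes. RNA from whole tissue reports the sum over all cells, so that more cells of a type and more RNA per cell cannot be told apart in the values below, nor can fewer cells and less RNA.

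Library totals ranged from 4421308 to 37877346 counts, with a median of 13879612. Depth went with the Abca1 genotype, at a median of 18871446 counts in 28 Abca1+/- and 8350020 counts in 30 Abca1+/+ mice, a ratio of 2.26. Levels are given as CPM, the counts scaled to 1000000 per library with edgeR's TMM factors, which lay between 0.954 and 1.038. The counts behind the CPM of a member ranged from 14 (Aif1) to 4852 (Cx3cr1). The targeted gene itself, Abca1, had a mean of 35.3 CPM in E3/Abca1+/- and 35.8 CPM in E4/Abca1+/- sham mice against 48.5 and 45.6 CPM in the Abca1+/+ sham mice, and 104 and 138 CPM against 170.0 and 156 CPM after TBI. The ranges of Abca1 overlapped between the Abca1 genotypes, and in E4 TBI mice its median was 130.1 CPM in Abca1+/- and 121 CPM in Abca1+/+ mice. A pair of mice stood apart from the rest of their groups. E4/Abca1+/- TBI replicate 8 had the lowest sum of 6 hippocampal neuron markers of all mice, 312 CPM, and was the highest of its group in 8 of the 10 members. E4/Abca1+/- sham replicate 2 had the highest sum of 15 disease-associated microglia genes among the sham mice, 3001 CPM, and was the highest of its group in 7 members. Counts of members that passed a test are given with and without this pair where they took part.

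The promoters of P2ry13, Siglech and Aif1 are shown because they hold GAGGAA, a core of the sites bound by the myeloid factor PU.1. That of P2ry12, which lies next to P2ry13 in the genome and also encodes a purinergic receptor, is shown as a promoter without such a match. Each runs from 250 bases before to 50 bases after the annotated start (300 bases, RefSeq, GRCm38.p6), 5′ to 3′ along the gene, and the capitals mark GAGGAA or, on the other strand, TTCCTC.

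P2ry13 promoter, chr3:59210833-59211132, minus strand: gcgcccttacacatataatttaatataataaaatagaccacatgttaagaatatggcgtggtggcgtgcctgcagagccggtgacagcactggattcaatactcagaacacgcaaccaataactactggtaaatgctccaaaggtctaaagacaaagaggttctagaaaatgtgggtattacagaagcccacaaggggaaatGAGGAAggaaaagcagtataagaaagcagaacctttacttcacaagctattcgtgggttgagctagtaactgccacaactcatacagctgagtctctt

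Siglech promoter, chr7:55767934-55768233, plus strand: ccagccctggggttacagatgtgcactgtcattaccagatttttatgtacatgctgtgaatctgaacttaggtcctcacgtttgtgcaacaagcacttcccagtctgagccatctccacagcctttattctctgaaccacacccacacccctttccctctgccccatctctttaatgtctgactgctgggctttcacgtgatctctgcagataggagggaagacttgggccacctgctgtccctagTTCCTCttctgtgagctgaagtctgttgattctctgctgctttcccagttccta

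Aif1 promoter, chr17:35176003-35176302, minus strand: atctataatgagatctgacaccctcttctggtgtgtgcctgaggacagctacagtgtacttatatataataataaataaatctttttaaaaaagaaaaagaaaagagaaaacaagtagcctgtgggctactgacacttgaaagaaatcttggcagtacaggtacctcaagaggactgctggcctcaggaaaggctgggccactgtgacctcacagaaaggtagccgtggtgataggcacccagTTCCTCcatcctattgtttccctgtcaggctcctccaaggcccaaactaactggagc

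P2ry12 promoter, chr3:59262936-59263235, minus strand: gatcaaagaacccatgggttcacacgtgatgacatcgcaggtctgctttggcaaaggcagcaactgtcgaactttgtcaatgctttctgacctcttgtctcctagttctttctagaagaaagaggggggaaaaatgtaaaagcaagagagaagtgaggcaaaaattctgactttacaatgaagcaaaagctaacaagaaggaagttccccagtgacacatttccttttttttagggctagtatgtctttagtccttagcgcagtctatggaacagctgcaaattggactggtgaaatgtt

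Counted from the start used for each promoter, the match began at position -48 in P2ry13 and, on the opposite strand, at -4 in Siglech and -7 in Aif1. In Siglech and Aif1 that start lies inside the gene span given below, and so does the match. RefSeq promoters were at hand for 7 of the members, and Tmem119, Gpr34 and Selplg had no entry. These 7 genes have 9 promoters in the table, of which 3 (33.3%) held GAGGAA on either strand, near the 28.3% of all 32851 mouse promoters of this length. TGTGGT, a core of RUNX sites searched on both strands, was also in 3 of the 9 (those of P2ry13, Cx3cr1 and Siglech) and in 16.8% of all promoters. CTA and TAG with any 4 bases between them, a looser pattern than a MEF2 site, were in that of Cx3cr1 at -67 and in 3.69% of all promoters. The 4 bases in Cx3cr1 were AAGA. The 3 motifs were chosen after the sequences were seen, and a match of letters does not show binding.

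The members were higher after injury. Averaged over the 4 genotypes, all 10 were higher in TBI than in sham mice (edgeR quasi-likelihood test, Benjamini-Hochberg adjusted p under 0.05 over all genes, the rule for every test below), where 29% of all 15171 genes were higher and 53.3% differed in either direction. The log2 fold changes ran from 0.40 for P2ry12 to 1.46 for Aif1, with a median of 0.72 over the members and of 0.01 over all genes. The summed CPM of the 10 genes lay between 206 and 278 in the 29 sham mice and between 309 and 582 in the 29 TBI mice, without overlap. Within genotypes, 10 members were higher in E3/Abca1+/+ mice (12.3% of the genes tested were, and 23.2% differed), 10 in E3/Abca1+/- mice (13.4% and 23.4%), 10 in E4/Abca1+/- mice (17.7% and 34.1%), but 9 in E4/Abca1+/+ mice (8.82% and 13.7%). The exception, Selplg in E4/Abca1+/+ mice, was above 0 without passing. Without the pair of mice that stood apart, all 10 were higher in E4/Abca1+/- mice and over the mean of the genotypes.

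**Figure D1:**
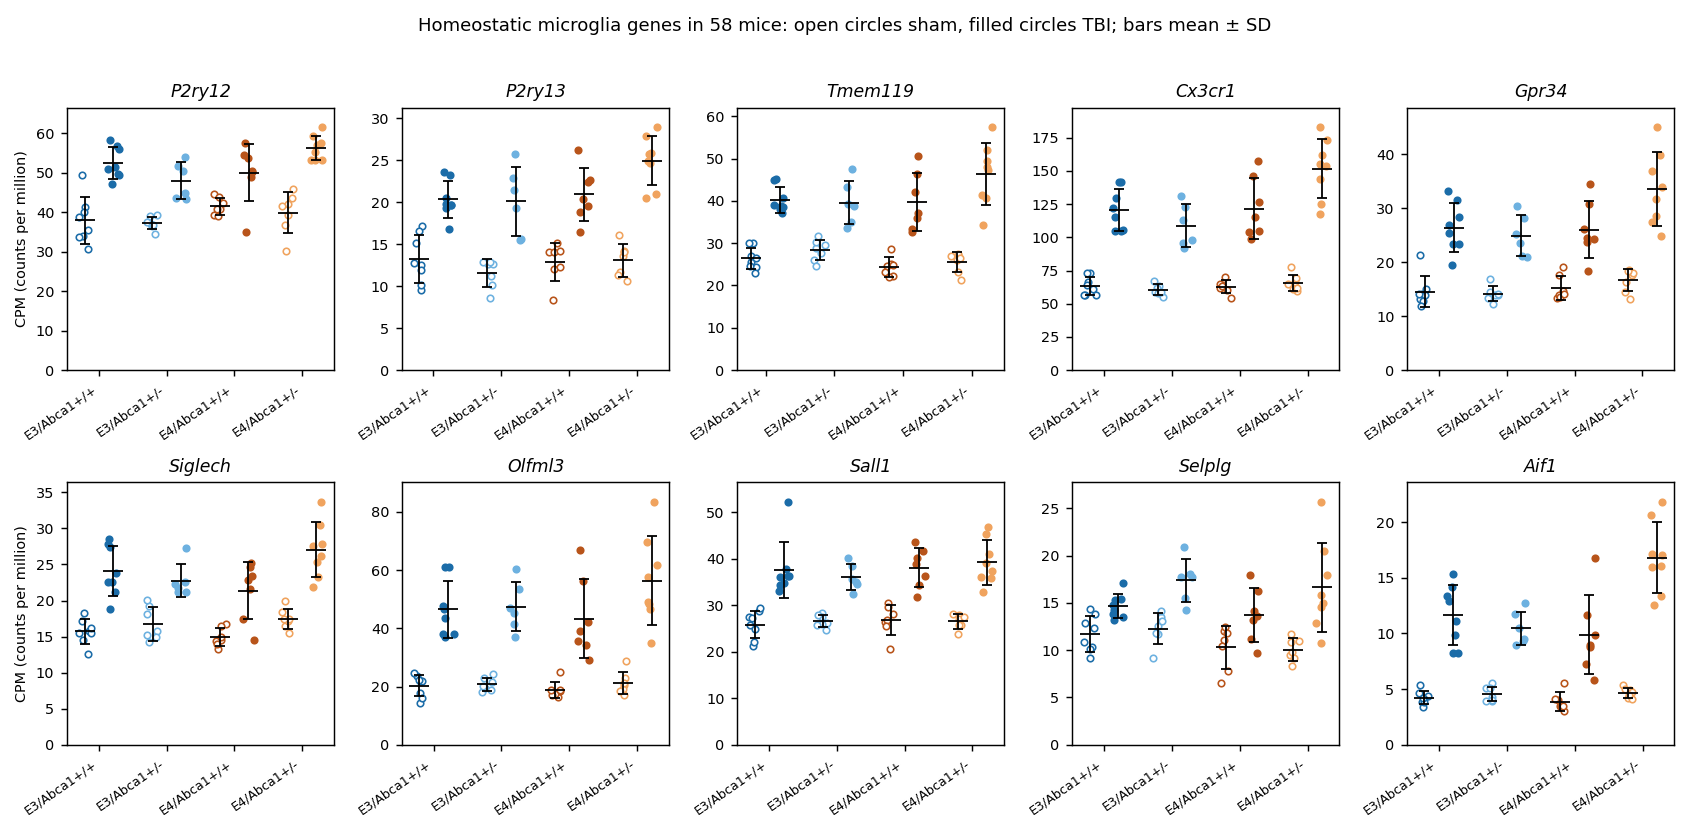
CPM of the 10 genes (y axes, each from 0) in every mouse, by genotype (x axes), with open circles for sham and filled circles for TBI and bars for the mean ± SD of 6 to 8 mice. In each panel the 4 TBI means lie above the 4 sham means, and for Tmem119, Cx3cr1, Olfml3, Sall1 and Aif1 every TBI mouse lies above every sham mouse.

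P2ry12 (gene identifier 70839, chr3:59216271-59262985 of GRCm38.p6, minus strand) encodes the ADP receptor that steers microglial processes toward released nucleotides. Its level was 30.1 CPM in the lowest, 39.2 in the median and 49.6 in the highest of the 29 sham mice, and 35.1, 53.1 and 61.6 CPM in the TBI mice. The groups overlapped, with 22 of 29 TBI mice above every sham mouse. The log2 fold change was 0.40 (SE 0.04, adjusted p = 2.35e-13 by edgeR), the smallest of the 10, and within genotypes it was 0.47, 0.37, 0.27 and 0.47 in the order E3/Abca1+/+, E3/Abca1+/-, E4/Abca1+/+ and E4/Abca1+/-. In E4/Abca1+/+ mice the sham group spanned 39.1 to 44.6 CPM and the TBI group 35.1 to 57.6 CPM, and a single mouse, TBI replicate 2, lay below the sham mice. The change there passed the test (edgeR adjusted p = 0.0363), but leaving out any of TBI replicates 1, 3, 5, 6 and 7 or sham replicates 3, 4, 6 and 7 moved the adjusted p to between 0.0521 and 0.0781, as did thinning all libraries to the same total (0.26, edgeR adjusted p = 0.0648). The log2 fold change stayed at 0.24 to 0.27 in these, and without TBI replicate 2 it was 0.34 (edgeR adjusted p = 0.000465).

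P2ry13 (74191, chr3:59207892-59210882, minus strand) encodes a related ADP receptor. Both genes lie within Med12l on its opposite strand, and whether the counting used the strand is not given in the sources used here. Sham mice held 8.40 CPM at the lowest, 12.7 at the median and 17.2 at the highest, and TBI mice 15.5, 21.0 and 28.9 CPM. All but 4 TBI mice lay above every sham mouse. These 4, at 15.5 to 16.8 CPM, were 1 E3/Abca1+/+, 2 E3/Abca1+/- and 1 E4/Abca1+/+ mouse, and when each genotype was taken by itself the ranges overlapped in E3/Abca1+/+ mice. P2ry13 changed by 0.77 (SE 0.06, edgeR adjusted p = 1.52e-16), and by 0.65 to 0.91 within genotypes, so that its log2 fold change exceeded that of P2ry12 in each of the 4.

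Cx3cr1 (13051, chr9:120048683-120068296, minus strand) encodes the receptor for fractalkine, a chemokine that neurons display. In sham mice its lowest, median and highest levels were 56.5, 62.3 and 72.9 CPM in E3/Abca1+/+, 55.0, 58.9 and 67.3 in E3/Abca1+/-, 54.7, 63.3 and 70.4 in E4/Abca1+/+ and 59.5, 64.6 and 77.5 in E4/Abca1+/- mice. After TBI they were 105, 119 and 142 CPM in E3/Abca1+/+, 91.8, 105 and 131 in E3/Abca1+/-, 98.4, 115 and 157 in E4/Abca1+/+ and 117, 155 and 183 in E4/Abca1+/- mice. Every TBI mouse of the 29 exceeded every sham mouse, and the E4/Abca1+/- TBI mice ranked highest by median. The log2 fold change was 0.99 (SE 0.05, edgeR adjusted p = 5.47e-25), close to a doubling, and ran from 0.84 in E3/Abca1+/- to 1.18 in E4/Abca1+/- mice. An exon of Cx3cr1 overlaps Gm33858 on the opposite strand.

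Gpr34 (23890, chrX:13622650-13640859, plus strand) encodes a receptor for lysophosphatidylserine, and lies within Cask on its opposite strand. Its level ran from 11.9 through a median of 14.1 to 21.4 CPM in sham mice and from 18.3 through 26.8 to 45.02 CPM in TBI mice. Of the TBI mice, 25 were above every sham mouse, and within genotypes the groups overlapped in both Abca1+/+ genotypes. Gpr34 rose by 0.87 (SE 0.06, edgeR adjusted p = 2.03e-18), and by 0.78 to 0.97 within genotypes.

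Tmem119 (231633, chr5:113793729-113800396, minus strand) encodes a transmembrane protein used to tell microglia from other macrophages. Sham mice spanned 21.3 to 31.8 CPM around a median of 26.1, and TBI mice 32.6 to 57.4 CPM around 40.6. No TBI mouse fell within the sham range. The log2 fold change was 0.66 (SE 0.04, edgeR adjusted p = 3.39e-19), from 0.47 in E3/Abca1+/- to 0.84 in E4/Abca1+/- mice.

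Siglech (233274, chr7:55768154-55779448, plus strand) encodes a sialic acid binding lectin that signals through the adaptor Tyrobp and also marks plasmacytoid dendritic cells. The lowest, median and highest levels were 12.6, 15.8 and 20.1 CPM in sham mice and 14.6, 23.2 and 33.7 CPM in TBI mice. The ranges overlapped in E4/Abca1+/+ mice alone when each genotype was taken by itself. Siglech rose by 0.55 (SE 0.05, edgeR adjusted p = 6.56e-15), and by 0.44 to 0.62 within genotypes.

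Selplg (20345, chr5:113817798-113832528, minus strand) encodes PSGL-1, the ligand of the selectins. Sham mice ranged from 6.56 to 14.3 CPM with a median of 11.1, and TBI mice from 9.67 to 25.7 CPM with a median of 15.0. Only 17 of 29 TBI mice lay above every sham mouse, the fewest of the 10 genes, and E3/Abca1+/- was the sole genotype without overlap. The change over the 4 genotypes was 0.50 (SE 0.07, edgeR adjusted p = 6.89e-09). In E4/Abca1+/+ mice the levels were 6.56, 11.1 and 12.4 CPM in sham and 9.67, 13.6 and 17.9 CPM in TBI mice, a log2 fold change of 0.43 (SE 0.16) that did not pass (edgeR adjusted p = 0.0770). Without TBI replicate 2 of that genotype it was 0.49 (edgeR adjusted p = 0.0369), with sex in the model 0.43 (0.0451) and in a single fit over all mice 0.43 (0.0315). In that single fit Selplg in E3/Abca1+/+ mice, at 0.34, no longer passed (edgeR adjusted p = 0.0527, against 0.0126).

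Olfml3 (99543, chr3:103735394-103738001, minus strand) encodes a secreted glycoprotein of the olfactomedin family. Its lowest, median and highest levels were 14.5, 19.5 and 28.8 CPM in sham mice and 29.1, 46.7 and 83.4 CPM in TBI mice. The lowest TBI mouse thus lay just above the highest sham mouse. Olfml3 rose by 1.25 (SE 0.08, edgeR adjusted p = 1.5e-20), the second most of the 10, and by 1.18 to 1.38 within genotypes.

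Sall1 (58198, chr8:89027242-89044162, minus strand) encodes the zinc finger transcription factor that keeps microglia in their resident identity, and is the sole transcription factor of the 10. Levels in sham mice ran from 20.7 to 30.4 CPM with a median of 26.9, and in TBI mice from 31.7 to 52.3 CPM with a median of 36.3. The ranges did not overlap. The log2 fold change of 0.51 (SE 0.04, edgeR adjusted p = 2.45e-16) varied little by genotype, from 0.44 to 0.54.

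Aif1 (11629, chr17:35170986-35176083, minus strand) encodes IBA1, the actin-binding protein stained to show microglia and other macrophages. Its lowest, median and highest sham levels were 3.43, 4.18 and 5.36 CPM in E3/Abca1+/+, 3.95, 4.29 and 5.52 in E3/Abca1+/-, 3.00, 3.52 and 5.54 in E4/Abca1+/+ and 4.11, 4.70 and 5.34 in E4/Abca1+/- mice. After TBI they were 8.24, 12.0 and 15.4 CPM in E3/Abca1+/+, 8.93, 9.97 and 12.7 in E3/Abca1+/-, 5.84, 8.99 and 16.8 in E4/Abca1+/+ and 12.5, 16.5 and 21.8 in E4/Abca1+/- mice. No TBI mouse reached down to a sham mouse, and the E4/Abca1+/+ TBI group was the most scattered, with a coefficient of variation of 36.0%, the highest of the 80 combinations of member and group. Aif1 rose by 1.46 (SE 0.07, edgeR adjusted p = 1.12e-23), the most of the 10, or 2.74-fold, and from 2.28-fold in E3/Abca1+/- to 3.53-fold in E4/Abca1+/- mice.

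**Figure D2:**
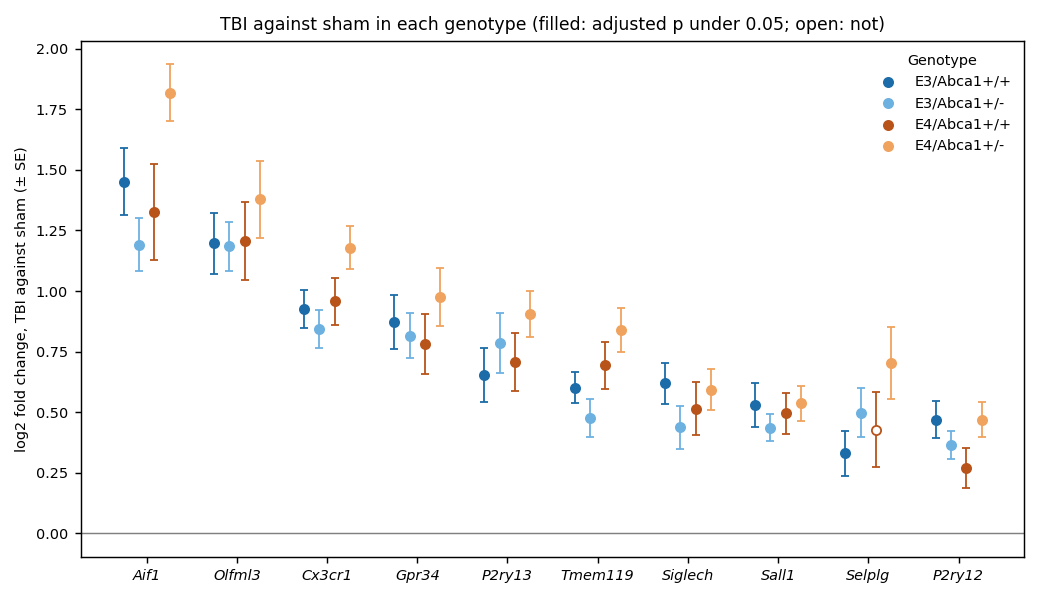
Log2 fold change, TBI against sham, of each gene (x axis, ordered by the mean over genotypes) in the 4 genotypes, with bars for the SE. Filled points passed the test and the open point, Selplg in E4/Abca1+/+ mice, did not. The E4/Abca1+/- value is the highest for every gene but Siglech. For P2ry12 this lead is less than the SE, and for Sall1, which varied little by genotype, it is small as well.

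The number of members in which every TBI mouse exceeded every sham mouse of its genotype was 6 in E3/Abca1+/+, 10 in E3/Abca1+/-, 6 in E4/Abca1+/+ and 9 in E4/Abca1+/- mice, where 4.36%, 6.57%, 3.76% and 7.36% of all genes did so. The members with an overlap were P2ry12, P2ry13, Gpr34 and Selplg among the E3/Abca1+/+ mice. Among the E4/Abca1+/+ mice they were P2ry12, Gpr34, Siglech and Selplg, and Selplg was the overlapping member in E4/Abca1+/- mice. For all 10 genes the 4 TBI groups had higher means than the 4 sham groups. Between the highest sham mean and the lowest TBI mean the gap exceeded the larger SD of the pair for 8 genes, but not for Siglech (17.5 against 21.4 CPM) and Selplg (12.3 against 13.7 CPM). E4/Abca1+/- TBI had the highest mean of the 8 groups for every member but Selplg, which was highest in E3/Abca1+/- TBI mice at 17.4 CPM, and the group with the highest mean was the same for all 10 without the mice that stood apart, though Sall1 was then at 38.2 CPM against 38.1 CPM in E4/Abca1+/+ TBI mice. For P2ry13, Cx3cr1, Gpr34 and Aif1 this highest mean exceeded the next by more than the larger SD of the pair, whereas for the other members neighboring TBI groups did not differ beyond their SD. No neighboring sham groups differed beyond it in any member. Of the genes tested, 17.7% were higher after TBI in E4/Abca1+/- mice, against 8.82% to 13.4% in the other genotypes. The share of all genes with their highest mean in E4/Abca1+/- TBI mice was not counted.

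Divided by transcript length, the levels of different members can be set side by side. P2ry12 and Cx3cr1 led in sham mice, level within their SD at 17.4 ± 1.94 and 16.8 ± 1.51 CPM per kilobase (SD, n = 29). After TBI Cx3cr1 was the higher on average, at 33.9 ± 6.58 against 23.1 ± 2.49. Aif1 was the lowest of 9 members in sham mice, at 4.95 CPM per kilobase, level with P2ry13 (5.02) and Sall1 (5.03). After TBI it reached 14.2 ± 4.51 CPM per kilobase, level within its SD with Gpr34 (14.7 ± 3.24) and Siglech (10.4 ± 1.72). Sall1 then had the lowest mean, 7.20 ± 0.88, level within the larger SD of each pair with Selplg (8.38 ± 1.76) and P2ry13 (8.58 ± 1.41). Lengths were those of the longest coding transcript of each gene, and Olfml3 was left out of this scale because its transcript model and its annotated span differed in length.

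The genes that share a pathway with the members were grouped by role. Of 11 ligands and partners, 6 rose and 1 fell over the mean of the 4 genotypes, with a median log2 fold change of 0.25. In that comparison 29% of all genes were higher and 53.3% differed, the shares for every list below as well. Cx3cl1, the fractalkine that binds Cx3cr1, fell from 928 ± 60.2 CPM in sham to 729 ± 71.9 CPM in TBI mice (SD, n = 29, log2 fold change -0.35). Tyrobp, the adaptor of Siglech, rose by 2.001 on the log2 scale, to 53.6 ± 20.9 CPM in TBI mice (SD, n = 29), and Entpd1, the ectonucleotidase that breaks down the ATP and ADP that P2ry12 and P2ry13 sense, by 0.68. Gnai2, a G protein subunit through which these receptors signal, rose by 0.42, and Adam17, a protease that sheds fractalkine, by 0.60. In whole tissue the RNA of Cx3cr1 and of its ligand thus changed in opposite directions, and the part of cell make-up in this was not tested.

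Among 12 signals and factors of microglial identity, 7 rose and 3 fell, with a median of 0.42, where 29% of all genes rose and 53.3% differed. Tgfb1 rose by 1.15 and its receptors Tgfbr2 by 0.94 and Tgfbr1 by 0.73, and Csf1, a growth factor of microglia, rose by 0.85. The transcription factors Mef2c and Mef2a and the integrin Itgav fell by 0.27, 0.09 and 0.18 on the log2 scale. Mef2c was at 663 CPM in sham mice and is also a neuronal gene. Of 19 other homeostatic microglia genes with a row, 16 rose, with a median of 0.80, close to the 0.72 of the members. Lag3 (1.98) and Slco2b1, a transporter (0.80), had the smallest p-values of that list.

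Genes of other myeloid states and other cells moved as well. All 15 disease-associated microglia genes rose, with a median of 2.05, among them the lipid receptor Trem2 (2.05), the lectin Clec7a (5.31) and Cd9 (1.33). In a pan-myeloid reference of 13 genes, such as the growth factor receptor Csf1r (0.96), Ly86 (1.90) and Unc93b1 (1.58), 12 rose, with a median of 1.58. Of 10 markers of infiltrating and border macrophages 9 rose, with a median of 0.97, and their sum ran from 5.16 to 24.4 CPM in sham and from 7.32 to 50.7 CPM in TBI mice. Ms4a7, Ccr2 and Plac8 rose from 0.350, 0.312 and 0.0465 CPM to 4.02, 2.28 and 0.658 CPM on average. Of 10 markers of neutrophils, lymphocytes and plasmacytoid dendritic cells 3 had a row, Cd8a, S100a8 and S100a9, all higher after TBI, and their sum reached 18.3 CPM in TBI and 1.07 CPM in sham mice. All 7 proliferation genes rose (Top2a by 1.23, Cdk1 by 1.67 and Mki67 by 0.93). The part of infiltrating cells in the levels of the members was not tested.

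All 6 neuron markers fell, with a median of -0.25, including Snap25 (-0.37), Gad1 (-0.28) and Rbfox3 (-0.28), and all 4 astrocyte markers rose, Gfap by 2.39, Aqp4 by 1.10 and Slc1a3 by 0.56. The summed neuron markers ranged from 7505 to 8554 CPM in sham and from 5336 to 7604 CPM in TBI mice. Oligodendrocyte markers (2 of 4 higher, among them Mbp by 0.12), endothelial markers (3 of 4 higher, Cldn5 by 0.32, Ly6c1 by 0.20 and Pecam1 by 0.12) and hippocampal neuron markers (1 of 6 higher, Wfs1 by 0.27, and 2 lower, Dsp at -0.86 and Neurod6 at -0.30) had medians of 0.08, 0.16 and -0.05. Over all genes 29% were higher and 53.3% differed, and the oligodendrocyte and hippocampal neuron markers differed in a share near the latter. What shifts in tissue make-up contribute to the changes of the members was not tested.

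To set the members beside other genes of myeloid cells, the mean log2(CPM + 1) of the pan-myeloid reference was subtracted from that of each gene in each mouse. This is a description without a test, and the added 1 compresses low genes such as Aif1. On this scale 9 of 10 members were lower in TBI than in sham mice, by a median of -0.57, and 14985 of all 15171 genes were lower, by a median of -1.24, so that the members lay between the reference and most genes. The differences were -0.86 for P2ry12, -0.80 for Selplg, -0.76 for Sall1, -0.73 for Siglech, -0.61 for Tmem119, -0.53 for P2ry13, -0.44 for Gpr34 and -0.29 for Cx3cr1. Olfml3 (-0.06) and Aif1 (0.01) moved with the reference.

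P2ry12 stood at 1.45 to 1.99 above the reference in sham and at 0.21 to 1.32 above it in TBI mice (log2, n = 29 each), without overlap. Sall1, at 0.84 to 1.43 in sham and -0.07 to 0.82 in TBI mice, and Siglech, at 0.21 to 0.81 and -0.88 to 0.14, also did not overlap. Of the TBI mice, 26 were below every sham mouse for Tmem119, 25 for Cx3cr1, 21 for Gpr34, 17 for Selplg, 13 for P2ry13, 2 for Olfml3 and 1 for Aif1. Within genotypes every TBI mouse lay below every sham mouse for 5 members in E3/Abca1+/+, 7 in E3/Abca1+/-, 4 in E4/Abca1+/+ and 8 in E4/Abca1+/- mice, against 86.2%, 90.8%, 87.1% and 92.3% of all genes. P2ry12, Siglech and Sall1 were among them in all 4 genotypes. The choice of reference set the size of these differences. With the median over the reference genes the median over the members was -0.82, and with Csf1r alone, whose rise of 0.96 was below the reference's median of 1.58, it was -0.26, and Cx3cr1 (0.02) and Olfml3 (0.25) were then no longer lower. The other homeostatic genes had a median difference of -0.62 from the reference. The infiltrating and border macrophage markers had one of -0.66 and the proliferation genes one of -0.95, so that a lower relative level was not particular to homeostatic genes. The disease-associated microglia genes had one of 0.39, with 10 of 15 higher and 5 lower.

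**Figure D3:**
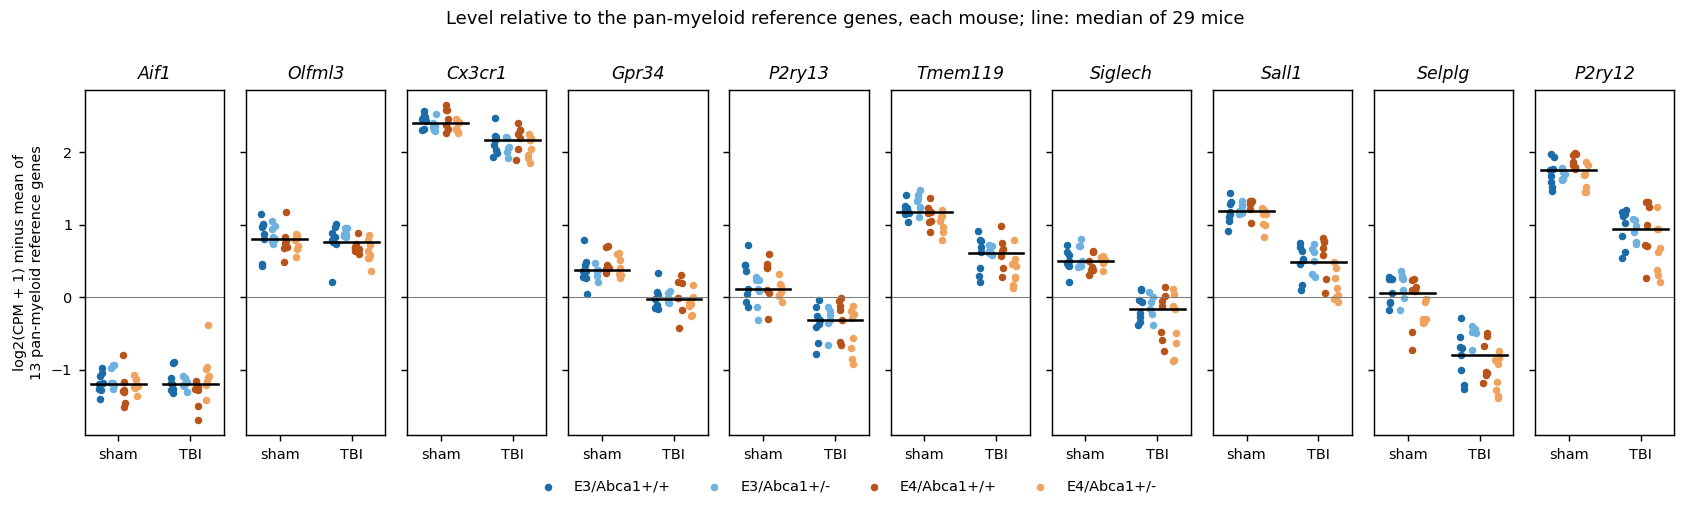
Log2(CPM + 1) of each gene minus the mean over the 13 pan-myeloid reference genes (y axis) in every sham and TBI mouse, colored by genotype, with lines at the median of 29 mice. P2ry12, Siglech and Sall1 do not overlap between sham and TBI, whereas Olfml3 and Aif1 share their ranges. Such a separation is common on this scale. Within genotypes, 86.2% to 92.3% of all genes had every TBI mouse below every sham mouse.

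Loss of an Abca1 copy was compared within each isoform and injury state, between libraries of unequal depth. In E3 sham mice no member passed, with log2 differences of -0.14 to 0.11, where 1.63% of all genes were higher and 2.51% differed. None had an unadjusted p under 0.05 by edgeR, against 16.7% of all genes. In E4 sham mice no member passed, at -0.05 to 0.27, where 0.373% were higher and 0.99% differed, nor without the mouse of that comparison that stood apart. At an unadjusted p under 0.05 by edgeR were 2 members, Siglech (0.24) and Aif1 (0.27), a share near the 16% of all genes. In E3 TBI mice no member passed either, at -0.17 to 0.24, where 0.0869% were higher and 0.18% differed, with 2 members at an unadjusted p under 0.05 by edgeR, P2ry12 (-0.14) and Selplg (0.24), against 9.07% of all genes. DESeq2 called 0 members in each of these 3 comparisons. In E4 TBI mice 1 member, Aif1, was higher in Abca1+/- mice, where 0.559% of all genes were higher and 1.47% differed. Its levels of 12.5 to 21.8 CPM against 5.84 to 16.8 CPM overlapped, and the log2 difference was 0.77 (SE 0.17, edgeR adjusted p = 0.0389). All 10 members had values above 0 in that comparison, from 0.03 for Sall1 through 0.30 for Cx3cr1, 0.32 for Siglech, 0.34 for Gpr34 and 0.37 for Olfml3, and 5 had an unadjusted p under 0.05 by edgeR, against 18.4% of all genes. Their median was 0.28, beside 0.46 for the pan-myeloid reference, 0.66 for the disease-associated microglia genes and 0.00 for all genes, and no gene of either list passed. The summed markers of infiltrating and border macrophages lay between 13.8 and 50.7 CPM in E4/Abca1+/- TBI and between 15.5 and 41.5 CPM in E4/Abca1+/+ TBI mice, and the summed astrocyte markers between 2512 and 5042 and between 1960 and 4086 CPM, whose part in the result was not tested.

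The call for Aif1 depended on the test and on single mice, at log2 differences of 0.69 to 0.92 over the alternatives run. DESeq2 gave 0.76 (adjusted p = 0.00167) and a single fit over all mice 0.79 (edgeR adjusted p = 0.000272). When counts were drawn down to the same total in all mice, which removes the gap in depth, it was 0.76 with an adjusted p of 0.0558 by edgeR, and no member passed. Leaving out any of E4/Abca1+/+ TBI replicates 1, 2, 3, 4, 5 and 7 or of E4/Abca1+/- TBI replicates 1, 3, 5, 6 and 7 also left it without a pass, at log2 differences of 0.69 to 0.82 and adjusted p-values of 0.0504 to 0.102 (edgeR). Without the pair of mice that stood apart it was 0.71 (edgeR adjusted p = 0.0480). The single fit called 4 members, adding Cx3cr1, Gpr34 and Siglech, and without E4/Abca1+/+ TBI replicate 6 Cx3cr1 passed at 0.37 (edgeR adjusted p = 0.0484).

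APOE4 mice were compared with APOE3 mice in the same way. With both Abca1 copies no member passed, in sham mice at -0.19 to 0.14 (0.212% of all genes were higher and 0.346% differed) or in TBI mice at -0.26 to 0.03 (0.143% and 0.207%), and none passed with DESeq2. None had an unadjusted p under 0.05 by edgeR, against 8.89% and 7.21% of all genes. In Abca1+/- sham mice, where 2.92% of all genes were higher and 5.27% differed, none passed by edgeR at -0.29 to 0.24, with or without the mouse that stood apart, and 4 had an unadjusted p under 0.05, against 23.4% of all genes. DESeq2 called Selplg there, lower in APOE4 mice at -0.29 (adjusted p = 0.0411, against 0.0835 by edgeR). In Abca1+/- TBI mice 2 members were higher in APOE4 mice, where 1.1% of all genes were higher and 2.87% differed. Aif1, at 12.5 to 21.8 CPM in E4 against 8.93 to 12.7 CPM in E3 mice, differed by 0.68 (SE 0.13, edgeR adjusted p = 0.0110), and Cx3cr1, at 117 to 183 against 91.8 to 131 CPM, by 0.46 (SE 0.10, edgeR adjusted p = 0.0243). The ranges overlapped in both genes. Gpr34 (0.41, edgeR adjusted p = 0.0919), P2ry13 (0.30), Olfml3 and Siglech (0.23 each), Tmem119 (0.22) and P2ry12 (0.21, edgeR adjusted p = 0.0662) were above 0 without passing, Sall1 was at 0.10 and Selplg at -0.08. At an unadjusted p under 0.05 by edgeR were 7 members, against 18.7% of all genes. The median over the members was 0.23, beside 0.54 for the pan-myeloid reference, of which none passed, 0.50 for the disease-associated microglia genes, of which Cd9 alone passed, 0.26 for the astrocyte markers, of which none passed, and 0.00 for all genes. The summed astrocyte markers had a median of 3649 CPM and reached 5042 CPM in E4/Abca1+/- TBI mice, against 2973 and 3585 CPM in E3/Abca1+/- TBI mice, and the summed markers of infiltrating and border macrophages lay between 13.8 and 50.7 and between 7.32 and 35.5 CPM, whose part in the result was not tested.

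Leaving out E3/Abca1+/- TBI replicate 1, 3 or 5 left Cx3cr1 without a pass, at 0.43 to 0.44 and edgeR adjusted p-values of 0.0537 to 0.0654, as did thinning to equal depth (0.44, 0.0565). Aif1 passed in every alternative, at 0.62 to 0.74. Without E4/Abca1+/- TBI replicate 6 Gpr34 passed as well (0.46, edgeR adjusted p = 0.0428), and without E3/Abca1+/- TBI replicate 6 P2ry12 did (0.25, edgeR adjusted p = 0.0441). DESeq2 and a model with sex called both of these besides Aif1 and Cx3cr1, 4 members in all, and the single fit over all mice added Gpr34. Without the mice that stood apart the same 2 members passed, Aif1 at 0.62 and Cx3cr1 at 0.42 (edgeR adjusted p = 0.0128 and 0.0326).

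**Figure D4:**
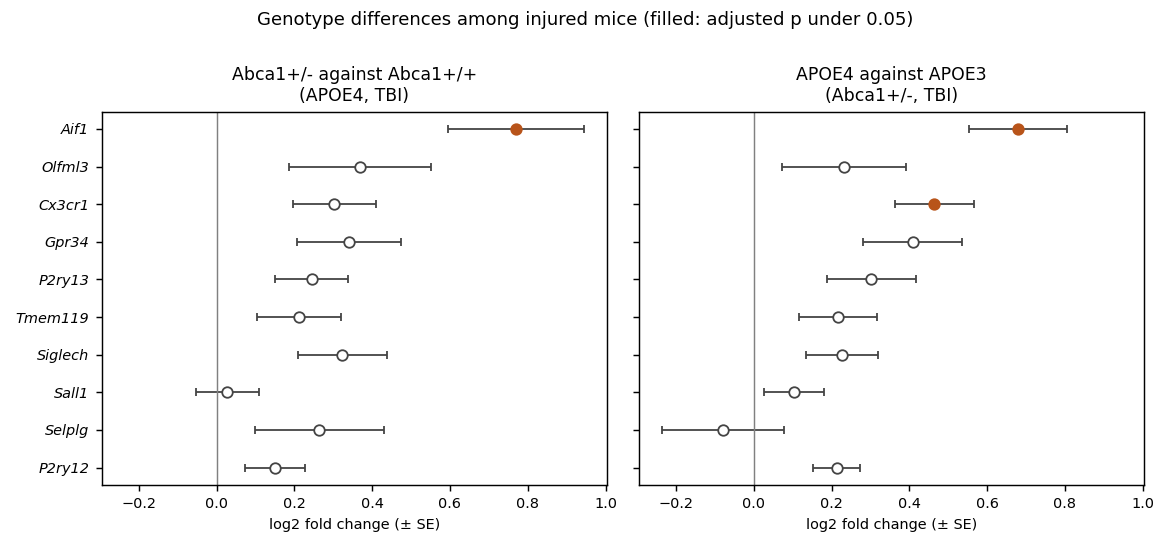
Log2 fold change (x axes, with bars for the SE) of each gene among injured mice, for Abca1+/- against Abca1+/+ in E4 mice (left) and for APOE4 against APOE3 in Abca1+/- mice (right), filled where the test was passed. Aif1 passed in both and Cx3cr1 in the right panel, and both panels use the 8 E4/Abca1+/- TBI mice.

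Whether the genotype changed the response to injury was tested directly. No member passed in any of the 6 interaction tests, of injury with Abca1, of injury with isoform or of isoform with Abca1, by edgeR or DESeq2 or, in the tests that included them, without the mice that stood apart, and 1 gene of the table (0.00661%) did in the test of isoform with Abca1 after TBI. Aif1 had the largest values, 0.51 (SE 0.23) for injury by Abca1 in E4 mice, 0.65 (SE 0.16) for injury by isoform in Abca1+/- mice and 0.94 (SE 0.23) for isoform by Abca1 after TBI, with edgeR adjusted p-values of 0.950, 0.691 and 0.209. At an unadjusted p under 0.05 by edgeR these 3 tests, which share the E4/Abca1+/- TBI mice, had 1, 3 and 5 members, against 4.85%, 6.34% and 10.1% of all genes. The other 3 tests had none, against 2.12%, 2.11% and 7.33%. The higher means of E4/Abca1+/- TBI mice were thus not shown to be a different response to injury.

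Females and males were compared over the 8 groups. Gpr34, which lies on the X chromosome, was higher in females by 0.26 (SE 0.05, edgeR adjusted p = 0.000673) and Olfml3 by 0.29 (SE 0.07, edgeR adjusted p = 0.00331), where 5.21% of all genes were higher in females and 10.1% differed. Gpr34 spanned 14.0 to 21.4 CPM around a median of 15.99 in 14 female and 11.9 to 18.6 around 13.6 in 15 male sham mice, and 23.3 to 45.02 around 30.6 in 14 female and 18.3 to 33.9 around 24.8 in 15 male TBI mice. Olfml3 medians were 21.5 and 18.3 CPM in female and male sham mice and 56.9 and 39.0 CPM after TBI. The ranges of the sexes overlapped in both genes. The highest Gpr34 and Olfml3 of all mice were in E4/Abca1+/- TBI replicate 8, a female that stood apart, and without the pair both genes passed, Gpr34 at 0.26 and Olfml3 at 0.31 (edgeR adjusted p = 0.00025 and 0.000391). The remaining 8 members had values of 0.03 to 0.17 without passing, of which Selplg, at 0.17, passed after thinning (0.26, edgeR adjusted p = 0.0227). No member passed the interaction of injury with sex by edgeR, with or without the pair, or by DESeq2. Cx3cr1 (0.22), Olfml3 (0.31) and Sall1 (0.19) had an unadjusted p under 0.05 by edgeR, against 7.47% of all genes.

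Within groups the members varied together across mice. After each group's mean was removed, all 45 pairs correlated above 0 over the 58 mice, from 0.12 for P2ry12 with Tmem119 to 0.79 for Gpr34 with Olfml3, with a median Pearson r of 0.46. These mice share groups and processing, and the correlations are a description. The median r of a member with the 15161 other genes of the table was 0.004. Cx3cr1 had the highest median r with the other members, 0.60, and P2ry12 the lowest, 0.35. P2ry12 correlated best with Gpr34 (0.62) among the members and least with Tmem119 (0.12) and Aif1 (0.16), while Aif1 correlated best with Tmem119 (0.63).

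Over the whole table the genes most like each member in this measure were mostly other myeloid genes for some and not for others. Cx3cr1 was most like Csf1r (0.83) and Ctsh, and Olfml3 most like Mpeg1 (0.83), Ctsh and Ctsd. Tmem119 was most like C1qb (0.74), Adgre1 and Snx20, Aif1 most like Unc93b1 (0.76), Cd53 and C1qa, and Gpr34 most like Epb41l2 (0.80), Olfml3 and Csf1r. Sall1 was most like Tgfbr2 (0.72), a receptor for TGF-beta, then Map3k1 and Epb41l2, and P2ry13 most like Cx3cr1 (0.64), Arrb2 and Tlr13. P2ry12 was most like Gpm6b (0.66), a membrane glycoprotein gene that many brain cells express, then 4931406C07Rik and Gpr34. Selplg was most like Rplp0 (0.75), a ribosomal protein gene, Coq2 and Thap6, and Siglech most like Gpr160 (0.66), Fbxo18 and Gpr84.

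**Figure D5:**
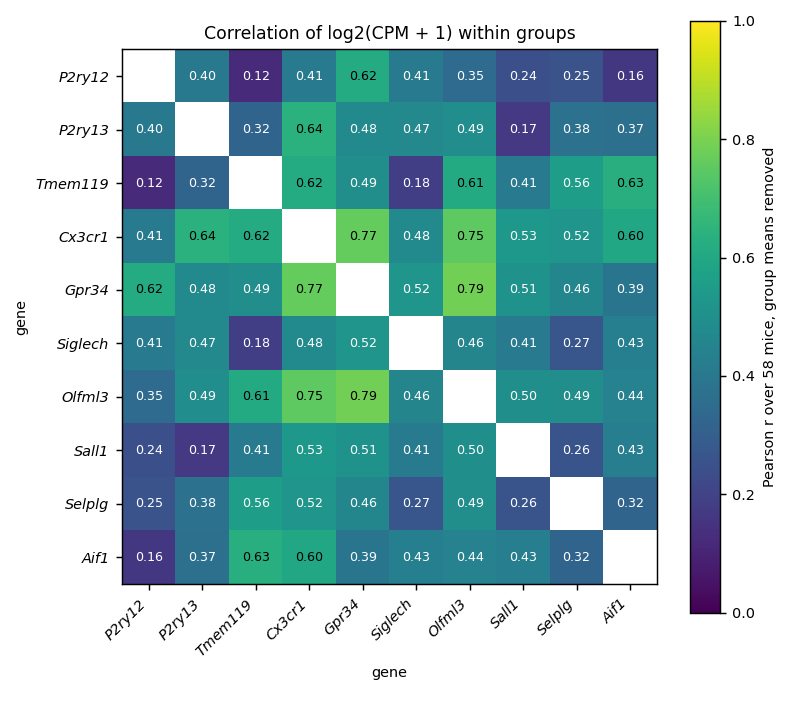
Pearson r of log2(CPM + 1) between each pair of the 10 genes (both axes) over 58 mice after removal of group means, on a color scale from 0 to 1. All pairs are above 0, the highest are Gpr34 with Olfml3 (0.79) and Cx3cr1 with Gpr34 (0.77), and the lowest is P2ry12 with Tmem119 (0.12).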

How the data were processed

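The authors deposited whole-number read counts per gene for 58 mice, 1 library each, not normalized. According to the study's methods and the submitters' processing notes, reads were aligned and summarized with Subread/featureCounts 1.5.0 and analyzed with edgeR, and the notes name the build mm10. The strand setting and the annotation used for counting are not given in the sources used here. Of the table, 2 blank lines were removed, and 23 symbols turned into dates were named by gene identifier. Of 183 within-group pairs, 0 were identical.

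Counts were scaled to CPM with TMM factors and compared with edgeR's quasi-likelihood test, after edgeR's filterByExpr, in fits of the groups compared alone. Interactions used the 4 groups concerned, and the averages over genotypes and the sexes used all 58 mice. P-values were adjusted by Benjamini-Hochberg over all genes tested, with a threshold of 0.05. Scripts were tested on simulated data. The members and the gene lists were chosen with earlier results of these data known. Named are the 10 members, from the lists of partners and of identity signals up to 4 genes per direction and from the others up to 3, with the smallest p for TBI over the mean of the genotypes among those that passed, and the 3 genes most correlated with each member. Some genes that this rule names are not reported here. Samples were grouped by the genotype, treatment and sex in their labels.

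The alternatives were the Wald test of DESeq2, its size factors within edgeR, no filter, sex as a covariate, thinning to 4421308 counts, a single fit over all mice, each mouse left out in turn, and for the relative levels another reference or pseudocount (0.1 in place of 1). Leaving out the pair of mice that stood apart, and Coro1a from the reference, was chosen after seeing the data. Gene positions and promoters came from RefSeq of GRCm38.p6 and transcript lengths from GENCODE. Totals of 4421308 to 37877346 counts set the precision, and Aif1 had the fewest counts of the members. Fits ran in edgeR 4.0.16 and DESeq2 1.42.0 under R 4.3.3. Values and plots were made in Python 3.11.15 (pandas 2.3.3, numpy 2.4.6, matplotlib 3.10.9).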

Additional observations from a re-analysis of the deposited data

Results flagged for a closer look

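In 5 of the 80 combinations of member and group (6.25%), a single mouse lay far from the others of its group by Dixon's criterion, which chance alone gives in about 1 of 20 groups. Sall1 was at 52.3 CPM in E3/Abca1+/+ TBI replicate 8, where the other mice lay between 33.0 and 37.8 CPM. Gpr34 was at 21.4 CPM in E3/Abca1+/+ sham replicate 4, against 11.9 to 15.1 CPM in the rest of its group. Siglech was at 27.3 CPM in E3/Abca1+/- TBI replicate 4, against 21.2 to 22.6 CPM. P2ry12 was at 35.1 CPM in E4/Abca1+/+ TBI replicate 2, below the 48.9 to 57.6 CPM of the others. Olfml3 was at 24.9 CPM in E4/Abca1+/+ sham replicate 5, against 16.5 to 18.8 CPM. The 5 values came from 5 different mice.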

How the results depend on the processing

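The counts of members higher after TBI kept within 1.5 times of the main count under every alternative, at 9 to 10 in E3/Abca1+/+, 10 in E3/Abca1+/-, 8 to 10 in E4/Abca1+/+ and 10 in E4/Abca1+/- mice. For Abca1+/- against Abca1+/+ in E4 TBI mice, where 1 member passed, thinning gave 0, a single fit 4 and leaving out a mouse 0 to 2. For APOE4 against APOE3 in Abca1+/- TBI mice, where 2 passed, DESeq2 and sex as a covariate each gave 4, thinning 1 and leaving out a mouse 1 to 3, and in Abca1+/- sham mice DESeq2 gave 1 in place of 0. The remaining Abca1, isoform and interaction counts were 0 under every alternative run. Sall1 in the comparison Abca1+/- against Abca1+/+, E4 TBI, turned from 0.03 to -0.0097 without E4/Abca1+/+ TBI replicate 2, to -0.0018 without E4/Abca1+/- TBI replicate 3 and to -0.013 without E4/Abca1+/- TBI replicate 8 or without the mice that stood apart, and lay between -0.013 and 0.062 over all mice left out. The median level relative to the reference, -0.57, was -0.82 with the median over the reference genes and -0.26 with Csf1r alone. Cx3cr1 and Olfml3 turned to 0.021 and 0.25 with Csf1r alone, and Aif1 to -0.24 with the median. The cause of these shifts was not tested. No paired analysis was possible because the replicate numbers were given in accession order within each group and pair no mice. Aif1, with as few as 14 counts in a library, is the member most limited by depth.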
